A study of Mus musculus with 22 samples.

Results

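The genes described here encode the integrins and the laminins. They were chosen by symbol from the first deposited table, as genes with a numbered integrin or laminin chain name, and 30 of 23993 symbols are described. All 30 were also found in the second deposited table, among 23490 symbols. Integrin α genes with letter names (Itgav, Itgal, Itgam, Itgax, Itgae and Itgad) fell outside that rule and are given only as partners.

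RNA from mouse mammary cells was sequenced in 22 libraries, 16 in the first table and 6 in the second. All donor mice were nulliparous C57Bl/6 females that carried MMTV-Cre and 1 mutant Trp53 allele, so no group had an intact Trp53 locus. The genotypes were Tet-op-CYP19A1MMTV-rtTA/p53-/+/MMTV-Cre (called CYP19A1 below), Brca1fl 11/WT/MMTV-Cre/Trp53-/+ (Brca1het) and Brca1fl11/fl11/MMTV-Cre/Trp53-/+ (Brca1hom). The MMTV promoter, active mainly in mammary epithelium, drove Cre and rtTA. Cells had been grown under 2 conditions, CRC (conditional reprogramming, a method that usually pairs epithelial cells with feeder fibroblasts and a kinase inhibitor) and EpiC (a medium for mammary epithelium). The first table held 3 CRC cultures and 3 EpiC cultures, of which culture 1 was CYP19A1, culture 2 Brca1het and culture 3 Brca1hom in each condition. It also held allografts grown in the mammary gland of NU (NCr)-Foxn1nu hosts, mice without a thymus that keep macrophages, natural killer cells and other blood cells. The 7 CRC allografts were 6C (CYP19A1), 10B, 10C and 11C (Brca1het), and 1, 2 and 12 (Brca1hom), and the 3 EpiC allografts were 7B (CYP19A1), 4C and 5A (Brca1het). The second table held primary cancers 1 and 2 and a CRC and an EpiC culture of each, all Brca1het. Both cancers share a number in their labels, whose meaning is not stated, so they may have come from the same mouse. Whether the libraries within a group stem from different mice or dishes is not stated, and a p-value therefore measures only how these libraries spread, which may be technical.

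Integrins are receptors of an α and a β chain that bind extracellular matrix outside the cell and the cytoskeleton inside it. Laminins are trimers of an α, a β and a γ chain and the main adhesive proteins of basement membranes. In the mammary gland, basal cells rest on a basement membrane through hemidesmosomes, in which integrin α6β4 binds a laminin with the α3 and β3 chains, whereas integrin β2 and its partners are found on blood cells.

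Values are FPKM, fragments scaled by transcript length and library size, so levels can be set side by side between genes within a table. Differences were taken between log2(FPKM + 1) values, a scale on which changes of low genes look smaller than they are. They were tested with limma over all genes that averaged 1 FPKM or more in the fit. A gene was called at an adjusted p under 0.05. The summed FPKM of a library ran from 466400 to 825200 in the first table and from 607500 to 1616000 in the second, where CRC culture 2 was the highest and the next was 710500. Fragment totals are unknown. The most frequent ratio of low values put the worth of 1 fragment at 0.973 to 1.56 times that of CRC allograft 10C in the other allografts and at 1.32 to 4.41 times in the cultures, highest in CRC culture 3, so by this rough measure most cultures were read less deeply than most allografts, although only 5.62% to 12.7% of low genes shared that ratio. Gene-level FPKM of Brca1 does not check a deletion within the gene, and it lay at 3.21 to 5.26 in the Brca1hom and 3.11 to 3.44 in the Brca1het CRC allografts. The library labelled EpiC culture 3 stood apart: its summed FPKM over 8 epithelial markers was 13.1, against 1595 and 1868 in EpiC cultures 1 and 2, with Epcam at 0.208. CRC allograft 6C was also low in epithelial markers, at 37.0 against 290 to 496 in the other CRC allografts. Over 8 basal markers the CRC cultures summed to 11420 to 15790 FPKM and the EpiC cultures to 79.8 to 505, and the basal keratin gene Krt5 read 4450 to 5457 against 1.00 to 2.32. Over 9 fibroblast markers the order was opposite, with 29.6 to 55.9 in the CRC cultures and 3372 to 6317 in the EpiC cultures.

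Integrin β1, the shared partner of most matrix-binding α chains, was the most abundant of the 20 integrin genes in every library of the first table. Itgb1 ranged from 306 to 596 FPKM over the 16 libraries and made up 59.6% to 84.9% of the summed FPKM of the 8 β genes. Other members reached high levels only in some groups. Itga3 spanned 4.91 to 255 FPKM, Itgb4 0.0966 to 114 and Lamb3 0.0338 to 137. Lama1, Lama2 and Lamc3, which encode chains of early embryonic, muscle and other basement membranes, stayed at or under 0.856, 0.518 and 1.12 FPKM and were too low to test in any comparison.

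**Figure D1:**
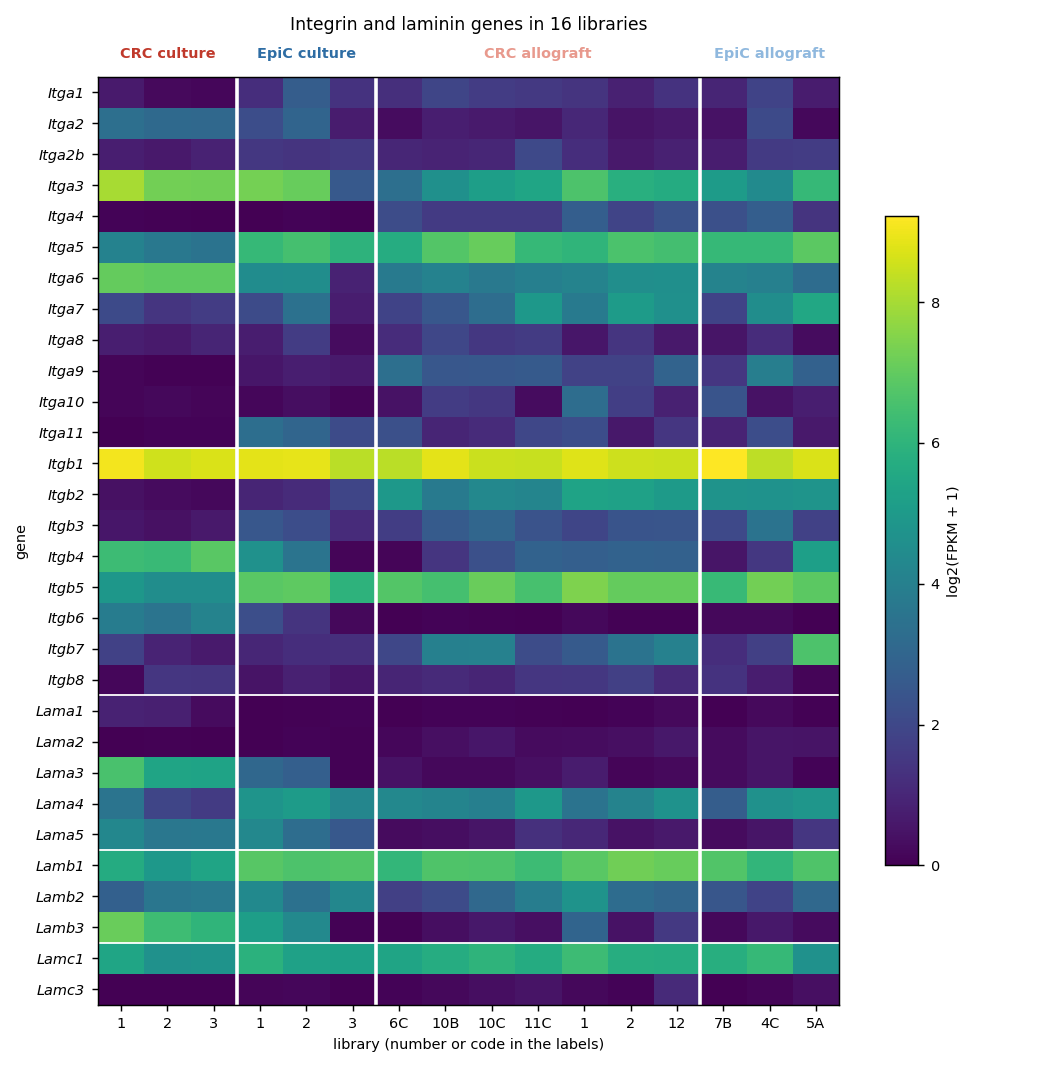
Level of each of the 30 genes (rows) in each of the 16 libraries of the first table (columns, by group), as log2(FPKM + 1). Itgb1 is bright in every column, Lama3, Lamb3, Itga6 and Itgb4 are brightest in the CRC cultures, and EpiC culture 3 is dark for all 4.

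The first comparison asked how the growth condition changed the cultures, within genotypes. Lama3, Itga6 and Itgb6 were called higher in the CRC cultures, and Itga5, Itgb5, Itga11, Lamb1 and Lama4 lower. Of the 21 members tested, 3 were called higher, where 11.4% of all 11837 genes were, and 5 lower, where 11.7% were. The median difference was -0.39 over the members and 0.04 over all genes. As these are bulk libraries, fewer cells of a type and less RNA per cell cannot be told apart.

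Lama3, the α3 chain, read 94.4, 40.8 and 40.1 FPKM in CRC cultures 1, 2 and 3 and 7.48, 5.99 and 0.0333 in EpiC cultures 1, 2 and 3. Every CRC culture lay above every EpiC culture, by 3.80 ± 0.56 (SE) on the log2 scale (limma adjusted p = 0.0194). Lamb3, the β3 chain, read 137, 81.5 and 64.8 against 34.8, 19.3 and 0.0439. Its estimate of 3.32 ± 0.90 missed the threshold (limma adjusted p = 0.0625). In both genes EpiC culture 3 was far below the other EpiC cultures.

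Integrin α6 is the chain that joins β4 in hemidesmosomes and β1 elsewhere. Itga6 read 130, 122 and 121 in the CRC cultures and 21.4, 22.1 and 0.839 in the EpiC cultures, a difference of 3.67 ± 0.81 (limma adjusted p = 0.0413). Itgb4 read 78.8, 76.1 and 114 against 24.6, 10.7 and 0.0966, and its difference of 3.69 ± 1.04 was not called (limma adjusted p = 0.0673). Neither gene overlapped between conditions. Here and elsewhere, such separation only describes the printed values, as the share of all genes without overlap is not given. Itgb6, which pairs with αv on epithelia and releases active TGF-β, read 13.8, 10.7 and 16.7 against 3.65, 1.61 and 0.134. It was higher by 2.60 ± 0.49 (limma adjusted p = 0.0308). Its partner gene Itgav differed little, at 28.3 to 33.0 in the CRC and 32.2 to 54.3 in the EpiC cultures (log2 difference -0.48, limma adjusted p = 0.189).

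Among the genes lower in the CRC cultures, Itga5, the fibronectin receptor chain α5, had the lowest adjusted p. It read 15.9, 11.9 and 10.4 in the CRC cultures and 71.5, 89.2 and 60.9 in the EpiC cultures. The difference was -2.45 ± 0.20 (limma adjusted p = 0.00733), and EpiC culture 3 lay near the other EpiC cultures. Itgb5, a vitronectin receptor chain, read 28.8, 21.99 and 21.8 against 115, 121 and 60.8, a difference of -1.94 ± 0.24 (limma adjusted p = 0.0141). Itga11, a collagen receptor chain of mesenchymal cells, was nearly absent from the CRC cultures, at 0.00799, 0.0530 and 0.0654, and read 9.08, 7.06 and 3.30 in the EpiC cultures (log2 difference -2.76 ± 0.33, limma adjusted p = 0.0136). None of these genes overlapped between the conditions.

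Lamb1 and Lama4 encode chains of laminins common in vessel and stromal basement membranes. Lamb1 read 50.4, 29.5 and 40.7 in the CRC cultures and 112, 98.1 and 103.5 in the EpiC cultures, a difference of -1.39 ± 0.18 (limma adjusted p = 0.0160). Lama4 read 10.7, 2.84 and 2.03 against 26.5, 32.2 and 17.9, a difference of -2.33 ± 0.41 (limma adjusted p = 0.0257). For both genes the groups were apart. Beside these falls, 7 of 8 tested fibroblast markers were lower in the CRC cultures, and beside the rises 5 of 6 tested basal markers were higher. Their part in the results was not tested.

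The other tested members did not pass in the cultures. Itgb1 averaged 437 ± 79.3 FPKM (SD, n = 3) in the CRC and 411 ± 87.2 in the EpiC cultures, with a 95% interval of -0.45 to 0.65 around its log2 difference. Itga3, another laminin receptor chain, averaged 186 and 98.6, with an interval of -0.70 to 4.41. Itgb3 (0.448 against 3.14), Itga1 (0.286 against 2.82) and Itga2b (0.703 against 1.78) had lower CRC means, and Itga2, a collagen receptor chain, a higher one (8.28 against 3.66), with limma adjusted p values from 0.0582 to 0.114. Itga7, Itgb7, Lama5, Lamb2 and Lamc1 had limma adjusted p values from 0.0666 to 0.985. Itga4, Itga8, Itga9, Itga10, Itgb2 and Itgb8 were too low to test in the cultures.

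The calls in the cultures depended on which cultures were in the fit. Each genotype was a single culture in each condition, so genotype and culture cannot be told apart. With either culture 3 left out, the members called higher numbered 5 (Itgb4 and Lamb3 were added) and those called lower 6 (Itgb3 was added). With either culture 1 left out, none was called higher and Itga5 and Lama4 were called lower. With either culture 2 left out, none was called in either direction, and the calls over all genes fell from 1352 higher and 1389 lower to 48 to 60 higher and 108 to 111 lower. Removing 1 culture also removes its partner of the same genotype from the estimate, which leaves 2 pairs. Without EpiC culture 3 the difference was 2.48 for Itga6 and 3.04 for Lama3.

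Other genes of the adhesion machinery were taken from lists of related genes. Of all genes, 11.4% were called higher and 11.7% lower in the CRC cultures. Of 7 tested genes for hemidesmosome and tetraspanin proteins, 3 rose and 1 fell. Col17a1, the hemidesmosomal collagen, averaged 167 FPKM in the CRC and 0.573 in the EpiC cultures (log2 difference 6.69, limma adjusted p = 0.00171), and Dst, which encodes the plakin BPAG1, averaged 68.6 and 7.14 (3.04, limma adjusted p = 0.00491). Among 7 other laminin receptors, Bcam (55.6 against 5.78) and Sdc1 (883 against 181) rose and Sdc2, Sdc3 and Sdc4 fell. Of 13 tested integrin ligand genes, Icam1 rose and 5 fell, among them fibronectin, Fn1 (92.8 against 863), osteopontin, Spp1 (198 against 7234), periostin, Postn (6.06 against 446), and Vcam1 (1.82 against 52.9). Of 15 tested other basement membrane genes, Col18a1, Ntn4 and Col7a1 rose and Smoc1, Sparc and Hspg2 fell. Of 25 adhesion complex genes, 3 rose (Actn1, Actn4 and Parva) and 4 fell (Kank2, Tgfb1i1, Fermt2 and Tns1).

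Promoters of the members were read for what they share. RefSeq entries (build GRCm38.p6, 250 bases before to 50 bases after a start) were found for 20 of the 30 members. Each was searched on both strands for TGANTCA (AP-1), GGAATG (TEAD), CACCTG (E-box) and GGGCGG (GC box), which were held by 7.81%, 14.7%, 20.2% and 35.7% of 32851 promoters of that length. Shown are 2 genes with higher CRC means in the cultures, Lamb3 (chr1:193301993-193302292, plus strand) and Itgb6 (chr2:60673644-60673943, minus strand), and 3 with lower ones, Itga5 (chr15:103366742-103367041, minus strand), Itgb5 (chr16:33829415-33829714, plus strand) and Lamb1 (chr12:31265043-31265342, plus strand), 5′ to 3′ on the strand of the gene, with every match in capitals.
Lamb3: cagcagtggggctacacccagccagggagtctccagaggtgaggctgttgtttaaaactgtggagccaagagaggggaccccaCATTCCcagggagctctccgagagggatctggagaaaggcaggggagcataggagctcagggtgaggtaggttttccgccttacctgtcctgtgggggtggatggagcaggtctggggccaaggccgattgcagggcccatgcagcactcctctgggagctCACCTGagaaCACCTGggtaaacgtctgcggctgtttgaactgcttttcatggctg
Itgb6: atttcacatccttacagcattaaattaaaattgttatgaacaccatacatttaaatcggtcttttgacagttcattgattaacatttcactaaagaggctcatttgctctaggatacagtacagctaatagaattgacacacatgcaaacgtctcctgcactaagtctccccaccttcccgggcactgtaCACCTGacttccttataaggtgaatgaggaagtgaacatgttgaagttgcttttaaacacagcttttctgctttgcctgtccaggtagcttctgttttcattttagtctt
Itga5: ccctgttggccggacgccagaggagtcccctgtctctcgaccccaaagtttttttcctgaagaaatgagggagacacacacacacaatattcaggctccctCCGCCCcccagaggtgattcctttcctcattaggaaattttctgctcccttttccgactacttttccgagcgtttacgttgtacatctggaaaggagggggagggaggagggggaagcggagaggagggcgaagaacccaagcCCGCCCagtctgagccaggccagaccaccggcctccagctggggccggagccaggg
Itgb5: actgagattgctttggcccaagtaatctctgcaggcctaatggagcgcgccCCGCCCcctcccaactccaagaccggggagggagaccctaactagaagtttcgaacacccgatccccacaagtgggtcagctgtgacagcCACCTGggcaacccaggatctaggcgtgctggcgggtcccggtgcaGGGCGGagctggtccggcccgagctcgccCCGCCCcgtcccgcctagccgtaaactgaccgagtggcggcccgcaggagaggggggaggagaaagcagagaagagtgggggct
Lamb1: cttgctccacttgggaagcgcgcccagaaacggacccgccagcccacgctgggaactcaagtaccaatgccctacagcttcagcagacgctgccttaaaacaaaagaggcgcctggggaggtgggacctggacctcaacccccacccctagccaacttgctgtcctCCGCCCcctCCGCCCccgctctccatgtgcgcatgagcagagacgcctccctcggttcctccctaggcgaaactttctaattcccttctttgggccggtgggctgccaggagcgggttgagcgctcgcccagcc
The Itga5, Itgb5 and Lamb1 entries held 2, 3 and 2 GC boxes, on 1 strand or the other, and Itgb5 also 1 E-box. The Lamb3 entry held 1 TEAD match and 2 E-boxes, and the Itgb6 entry 1 E-box. Neither held a GC box, and a further entry of each of these 2 genes held no match to any of the 4 motifs. None of the 5 printed sequences held an AP-1 match, and no matches overlapped. Over the 20 members with an entry the printed contrast did not extend: a GC box was held by 9, namely by 4 of 6 tested members with a higher CRC mean in the cultures on the log2 scale (Itga2, Itga3, Itgb1 and Lama5) and by 3 of 8 with a lower one (the 3 printed). An E-box was held by 8 members, a TEAD match by 3 (Lamb3, Itgb1 and Itga10) and an AP-1 match by 2 (Itga3 and Itga9). These matches describe the letters in these windows and are not evidence of binding.

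The second comparison set the CRC allografts against the CRC cultures. Grafted and host cells are both mouse, so their RNA cannot be told apart in the bulk allograft libraries. Rises and falls between cultures and allografts are therefore differences between libraries, not changes shown within the grafted cells. Both families had calls in both directions: 3 laminin genes and 8 integrin genes, among them Itgb2, Itga5 and Itgb5, rose, and 3 laminin genes (Lama3, Lamb3 and Lama5) and 4 integrin genes (Itga6, Itgb4, Itgb6 and Itga2) fell. Of 27 members tested, 11 were called higher, where 21.2% of all 12325 genes were, and 7 lower, where 18.4% were. The median was 0.90 over the members and 0.04 over all genes.

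Lama3 fell from 94.4, 40.8 and 40.1 FPKM in the CRC cultures to between 0.0998 and 0.648 in the 7 CRC allografts, with a median of 0.169. The difference was -5.30 ± 0.44 (limma adjusted p = 5.27e-07). Lamb3 fell from 137, 81.5 and 64.8 to between 0.0338 and 6.78, median 0.377 (-5.49 ± 0.87, limma adjusted p = 2.17e-04). Its highest allograft value was in allograft 1, where Epcam was also highest, at 25.6 FPKM against 0.419 to 1.74 in the other CRC allografts. No allograft reached a culture in either gene. Lama5, whose chain is widespread in epithelial basement membranes, read 18.5, 11.7 and 11.8 in the cultures and 0.219 to 1.45, median 0.454, in the allografts (-3.18 ± 0.37, limma adjusted p = 1.48e-05).

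Of the integrin genes that fell, Itgb4 went from 78.8, 76.1 and 114 to between 0.103 and 6.48, median 5.99, lowest in allograft 6C (-4.43 ± 1.01, limma adjusted p = 0.00329). Itga6 went from 130, 122 and 121 to between 12.3 and 22.9, median 16.04 (-2.76 ± 0.58, limma adjusted p = 0.00189). The groups were apart in both genes. Itgb6 went from 13.8, 10.7 and 16.7 to at most 0.158, median 0.0444 (-3.72 ± 0.31, limma adjusted p = 5.54e-07), and Itga2 from 9.24, 7.91 and 7.70 to between 0.240 and 1.06, median 0.564 (-2.60 ± 0.43, limma adjusted p = 3.09e-04). Itga3 was not called (255, 153 and 150 against 9.32 to 99.4, median 41.6, limma adjusted p = 0.0620), although no allograft reached a culture. Beside these falls, 6 of 8 epithelial and 5 of 7 tested basal markers fell, and 1 basal marker, the myosin kinase gene Mylk, rose (0.311 to 4.16 FPKM). Their part in the results was not tested.

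Among the members that rose, Itgb2, the β chain of leukocyte integrins, changed by the largest amount. It read 0.325, 0.204 and 0.154 in the CRC cultures and 13.1 to 39.6, median 29.6, in the allografts (4.38 ± 0.24, limma adjusted p = 1.16e-08). Its partner genes Itgam, Itgax and Itgal, outside the naming rule, also rose: Itgam from at most 0.184 to between 12.8 and 61.0, Itgax from at most 0.0269 to between 1.84 and 8.70, and Itgal from at most 0.0411 to between 1.52 and 4.80. Itga9 read 0.0781, 0.0421 and 0.0305 against 2.51 to 9.30, median 4.85 (2.42 ± 0.42, limma adjusted p = 5.07e-04), and Itga4, a leukocyte receptor for VCAM1 and fibronectin, rose from at most 0.0592 to between 1.94 and 5.83 (1.95 ± 0.30, limma adjusted p = 1.50e-04). All 8 macrophage markers rose as well. Their sum was 10.9 to 55.3 FPKM in the CRC cultures and 3858 to 12620 in the CRC allografts, and 6 of the 8 were under 1 FPKM in every CRC culture. Of the tested markers of other cell types, 2 of 2 lymphocyte and natural killer cell, 1 of 4 neutrophil and 5 of 6 pericyte or smooth muscle markers also rose. In the same comparison 1 pericyte or smooth muscle and 1 platelet marker fell, and 1 platelet marker rose. The part of any of these markers in the rises was not tested.

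Matrix receptors shared by mesenchymal cells also rose. Itga5 went from 15.9, 11.9 and 10.4 to between 51.8 and 133, median 88.2 (2.61 ± 0.27, limma adjusted p = 5.06e-06), and Itgb5 from 28.8, 21.99 and 21.8 to between 90.3 and 174, median 130 (2.26 ± 0.30, limma adjusted p = 4.39e-05). Every allograft lay above every culture in both. Itgb3 rose from at most 0.538 to between 2.18 and 7.22, Itga11 from at most 0.0654 to between 0.520 and 3.79, and Itga1 from at most 0.577 to between 0.782 and 2.80. Lamb1 read 50.4, 29.5 and 40.7 against 67.5 to 149, median 102.9 (1.37 ± 0.24, limma adjusted p = 5.07e-04), and Lama4 read 10.7, 2.84 and 2.03 against 10.4 to 29.0, median 16.8 (1.89 ± 0.46, limma adjusted p = 0.00526). Lamc1, the γ chain of most laminins, read 42.1, 24.5 and 25.5 against 41.2 to 79.7, median 51.6 (0.90 ± 0.31, limma adjusted p = 0.0340). The lowest allograft lay below CRC culture 1 for Lama4 and Lamc1. All 9 fibroblast markers and all 8 tested endothelial markers rose too, with fibroblast sums of 1391 to 4893 FPKM in the CRC allografts and endothelial sums of 64.9 to 180, against 1.46 to 2.09 in the CRC cultures. Their part was not tested.

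Of these 18 calls, 14 held in every alternative in which the gene was tested. Lama4, Lamc1 and Itga1 lost theirs without CRC culture 2 or without CRC culture 3, which left 8 called higher. Lamc1 also lost its call without allograft 10B or 10C, and Itga11 without CRC culture 1. Itgb1 was level (437 ± 79.3, n = 3, against 377 ± 54.9, n = 7, interval -0.67 to 0.33), and Itgb8, Lamb2, Itga2b, Itga7, Itga8, Itga10 and Itgb7 were not called. Itga7, a laminin receptor chain of muscle, went from at most 3.18 to between 2.62 and 32.4 FPKM without being called (limma adjusted p = 0.0755).

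**Figure D2:**
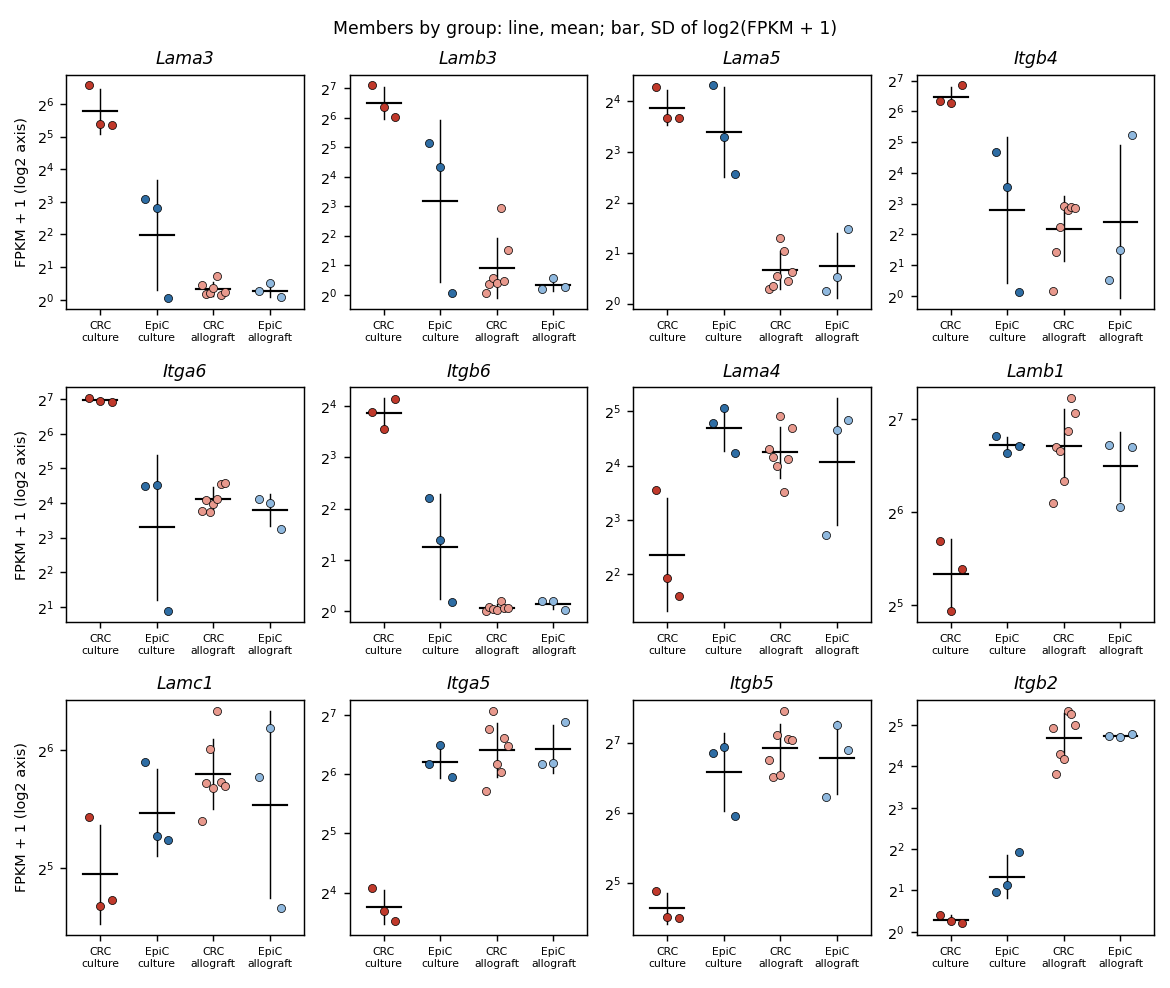
FPKM + 1 on a log2 axis for 12 members in the 4 groups of the first table. Points are libraries in the order of the text, lines are means and bars are SDs of log2(FPKM + 1). Lama3, Lamb3, Itgb4, Itga6 and Itgb6 are highest in the CRC cultures, Lama4, Lamb1, Lamc1, Itga5 and Itgb5 have their lowest means there, Lama5 is low in the allografts (1.77 FPKM or less), and Itgb2 is high only in allografts (13.1 FPKM or more).

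Related genes were compared between the CRC cultures and CRC allografts, where 21.2% of all genes were called higher and 18.4% lower in the allografts. Among the hemidesmosome and tetraspanin genes, 4 of 7 fell and none rose, with Col17a1 at 167 FPKM in the cultures and 0.336 in the allografts (-6.94, limma adjusted p = 1.70e-10). Of the other laminin receptors, Bcam (55.6 to 1.26), Sdc1 (883 to 73.0) and Dag1 (65.7 to 32.8) fell and Sdc2 (41.3 to 246) rose. Of 27 adhesion complex genes, 11 rose, led by Fermt3, the kindlin of blood cells (0.0690 to 24.6), and 4 fell, led by Tns4 (60.8 to 1.07). Of 14 tested ligand genes, 9 rose, with Postn (6.06 to 536), Vcam1 (1.82 to 99.3) and Fn1 (92.8 to 617) at the top, and Thbs1 fell (192 to 20.6). Of 17 tested basement membrane genes, 5 rose, among them Nid2, Col15a1 and Sparc, and Agrn and Tinagl1 fell.

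The same comparison of EpiC allografts with EpiC cultures called fewer members. Itgb2, Itga4 and Itga9 rose and Lama5, Lama3 and Itga11 fell, which made 3 of 27 called higher, where 7.94% of all genes were, and 3 lower, where 6.26% were. The median was -0.09 over the members and 0.01 over all genes. Itgb2 read 0.951, 1.18 and 2.78 in EpiC cultures 1, 2 and 3 and 25.9, 25.1 and 26.5 in allografts 7B, 4C and 5A (3.67 ± 0.29, limma adjusted p = 1.69e-06). Itga9 read 0.481, 0.703 and 0.574 against 1.73, 14.4 and 6.30 (1.94 ± 0.51, limma adjusted p = 0.0224). Itga4 rose from at most 0.0735 to 3.71, 5.68 and 1.61 (2.21 ± 0.36, limma adjusted p = 9.22e-04). All 3 were apart between groups, and the macrophage markers summed to 7.36 to 18.6 FPKM in the EpiC cultures and 4014 to 12740 in the EpiC allografts, with 8 of 8 called higher. Of the tested markers of other cell types, 6 of 8 endothelial, 2 of 2 lymphocyte and natural killer cell and 2 of 4 neutrophil markers rose as well. So did 1 of 2 platelet and 3 of 6 pericyte or smooth muscle markers, while 1 pericyte or smooth muscle marker fell. Their part was not tested.

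Among the genes lower in the EpiC allografts, Lama5 read 19.0, 8.86 and 4.88 in the cultures and 0.192, 0.432 and 1.77 in allografts 7B, 4C and 5A (-2.74 ± 0.45, limma adjusted p = 0.00102). Itga11 read 9.08, 7.06 and 3.30 against 0.872, 3.55 and 0.541 (-1.66 ± 0.51, limma adjusted p = 0.0432), with allograft 4C inside the range of the cultures. Lama3 read 7.48, 5.99 and 0.0333 against 0.196, 0.419 and 0.0584 (-1.88 ± 0.53, limma adjusted p = 0.0293). EpiC culture 3 was below every allograft for Lama3 and Lamb3, so the culture range enclosed the allografts in those genes. Without EpiC culture 3, 6 members fell: Lamb3, Itgb6 and Itga2 joined Lama3, Lama5 and Itga11. Without EpiC culture 1, without EpiC culture 2, without allograft 7B or without allograft 5A, only Lama5 was called lower. Itga9 lost its call without EpiC culture 1, EpiC culture 2 or allograft 4C. The call of Itga11 was also lost without any 1 of CRC cultures 1, 2 and 3 or CRC allografts 10C, 11C and 12, whose libraries enter the same model. In this comparison 2 of 8 epithelial, 2 of 7 tested basal and 2 of 9 fibroblast markers fell, and their part was not tested. Of 14 tested ligand genes 2 rose and 3 fell, and of 17 tested basement membrane genes 1 rose and 3 fell. Over all genes, 7.94% were called higher and 6.26% lower in the EpiC allografts. The ligand Spp1, a bone matrix protein bound by αv integrins, fell from the EpiC cultures to the EpiC allografts (7234 to 495 FPKM). So did Thbs1 (383 to 30.0) and Cyr61 (626 to 69.6), and Nid1 fell among the basement membrane genes (138 to 18.9).

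The test of the difference between the CRC and the EpiC change called 9 members. It was positive (a larger rise or smaller fall from CRC cultures to CRC allografts) for 6 of 27, where 6.35% of all genes were, and negative for 3, where 5.87% were. The CRC and EpiC changes, side by side on the log2 scale, were 2.61 and 0.10 for Itga5, 2.26 and 0.20 for Itgb5, 1.37 and -0.09 for Lamb1, 1.89 and -0.82 for Lama4, 1.51 and -1.66 for Itga11, and 1.04 and -0.78 for Itga1. They were -5.30 and -1.88 for Lama3, -3.72 and -1.15 for Itgb6, and -2.76 and 0.35 for Itga6. The first 6 genes had lower means in the CRC than in the EpiC cultures, and the last 3 had higher ones. The difference between the cultures enters this test, and all of these genes but Itga1 were also called between the cultures. The limma adjusted p of the difference ran from 0.00167 (Itga5) to 0.0388 (Itga6). Itga5, Itga11 and Itgb6 kept this call in every alternative in which they were tested. Without CRC culture 3 the positive calls were 2 (Itga5 and Itga11). The negative calls were 2 (Itgb6 and Lama3) without any 1 of CRC cultures 1, 2 and 3 and allografts 6C, 10B, 10C, 11C, 7B and 4C. For Itgb4 the difference of -3.92 was not called (limma adjusted p = 0.129), nor was it for Lamb3 (-2.55, 0.261).

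**Figure D3:**
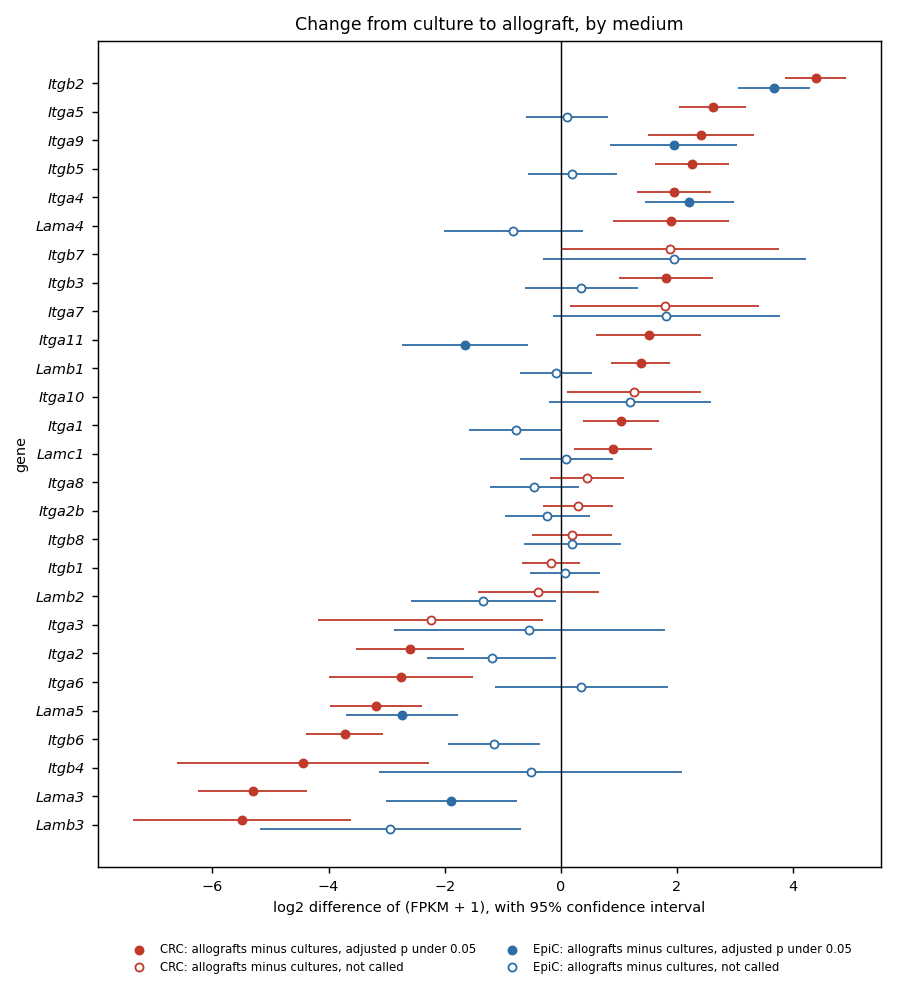
Log2 difference in FPKM + 1 between allografts and cultures for the 27 tested members, with 95% confidence intervals, for CRC (red) and EpiC (blue) libraries. Filled points passed an adjusted p of 0.05. Itgb2, Itga9 and Itga4 are filled on the right in both colours, and the widest gaps between the colours are those of Itgb4, Lama3, Itga11 and Itga6.

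As a result of these levels, the make-up of laminin α and β transcripts differed between the groups, which is given as a description. Lama3 made up 72.6% to 75.9% of the summed laminin α FPKM in the CRC cultures, and Lama4 made up 84.1% to 96.3% in the CRC allografts and 90.3% to 94.2% in the EpiC allografts. In the EpiC cultures Lama4 had 49.98% to 78.2% and Lama3 0.146% to 14.1%. Lamb3 held 54.96% to 70.8% of the β chains in the CRC cultures, 0.0360% to 20.9% in the EpiC cultures and at most 4.57% in any allograft, where Lamb1 held 78.2% or more.

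**Figure D4:**
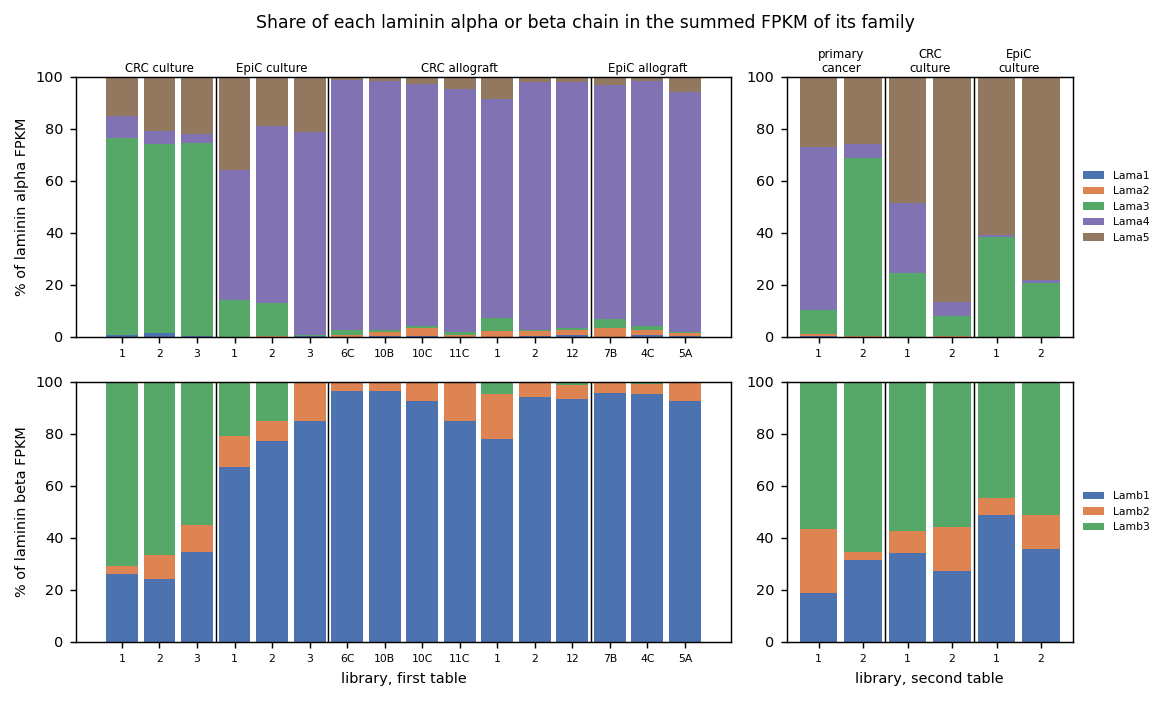
Percent of the summed FPKM of the laminin α and β genes held by each chain in each library, first table on the left and second table on the right, with groups divided by lines. In the first table, CRC cultures are dominated by Lama3 and Lamb3 and all 10 allografts by Lama4 and Lamb1. In the second table, Lamb3 holds the largest share of the β chains in all libraries except EpiC culture 1.

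In the RefSeq gene order, Itga1 and Itga2 are neighbours without another protein-coding gene between them. From the CRC cultures to the CRC allografts Itga2 fell and Itga1 rose, and the call of Itga1 depended on single libraries, as above.

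Between allografts of the 2 conditions no member was called. Brca1hom had CRC allografts only, so with genotype in the fit these added nothing to the estimated difference between conditions. The means and ranges given here include them. Of 23 tested, 0 were called, where limma called 0% of all 11999 genes higher and 0.00833% lower in CRC allografts. At an unadjusted p under 0.05 there was 1 member, Itga8 (mean 1.53 against 0.650 FPKM, limma adjusted p = 0.534), and 1011 of all genes. Intervals were narrow for some members (Itga6, -0.49 to 0.72; Lamb1, -0.66 to 0.56; Itga5, -0.74 to 0.66) and wide for others. Itgb7, which forms leukocyte homing receptors with α4 or αE, read 2.86 to 15.6 FPKM in the CRC allografts and 1.30, 2.39 and 98.6 in EpiC allografts 7B, 4C and 5A, an interval of -2.58 to 1.90. Allograft 5A was low in the partner genes, with Itga4 at 1.61 and Itgae at 0.124. It was also the highest allograft for Itgb4 (36.3 against at most 6.48) and Itga7 (45.1 against at most 32.4) and had the highest epithelial marker sum of all allografts (892) and the highest summed FPKM of the table.

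Among the CRC allografts, the Brca1hom and Brca1het genotypes were compared, 3 against 3. Brca1het allografts 10B and 10C share a number in their labels, whose meaning is not stated, so they may not be independent. Of 23 members tested, 0 were called, and limma called 0% of all 11928 genes in either direction (4 members and 1246 of all genes at an unadjusted p under 0.05). The lowest p was that of Itgb2, at 39.6, 37.4 and 31.2 FPKM in Brca1hom allografts 1, 2 and 12 and 13.1, 18.8 and 17.2 in Brca1het allografts 10B, 10C and 11C, which did not overlap (1.10 ± 0.22, limma adjusted p = 0.285). The macrophage markers summed to 7079, 8698 and 8521 FPKM in the same Brca1hom allografts and to 3858, 4874 and 3988 in the Brca1het allografts, also apart, with a median log2 difference of 1.01 over the 8 markers and 0 called. Neutrophil markers summed to 45.6, 168 and 30.8 in the Brca1hom and 145, 156.5 and 557 in the Brca1het allografts, which overlapped. The median over tested markers was -1.50 for neutrophils, 0.56 for lymphocytes and natural killer cells and -0.78 for endothelium, with 0 called in each. Their part was not tested. Itga4 (4.25 ± 1.55 against 1.97 ± 0.0219), Itga3 (68.4 ± 27.0 against 33.4 ± 9.03) and Itga8 (0.895 ± 0.673 against 2.25 ± 0.594) were the other 3. Itgb1 averaged 387 and 389, with an interval of -0.54 to 0.54.

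In the second table, normalised apart from the first, Lama3, Lamb3 and the receptor genes Itgb4 and Itga6 were read in the primary cancers and in all their cultures. Lamb3 read 41.2 and 130 FPKM in cancers 1 and 2, 88.4 and 44.1 in their CRC cultures, and 59.0 and 39.8 in their EpiC cultures, and Lama3 read 3.99 and 90.5, then 17.9 and 1.71, then 33.2 and 8.13. Cancer 2 exceeded cancer 1 in both genes, whereas culture 1 exceeded culture 2 under both conditions. Itgb4 read 37.7 and 49.9 in the cancers, 32.4 and 27.2 in the CRC and 36.0 and 21.4 in the EpiC cultures. Itga6 read 41.4 and 53.05, then 68.8 and 16.7, then 81.4 and 26.7, and Itga3 34.1 and 220, then 181 and 86.0, then 255 and 122.

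No member passed the test in this table. Of 20 tested, 0 were called between CRC cultures and cancers, where limma called 0.416% of all 12266 genes higher and 0.473% lower, and 2 members and 861 of all genes had an unadjusted p under 0.05. Between EpiC cultures and cancers 0 were called, where 0.253% were higher and 0.424% lower (3 members and 834 of all genes unadjusted). Between CRC and EpiC cultures 0 were called, where 0% were higher and 0.00815% lower (0 members and 200 of all genes unadjusted). Itgb2 had the lowest p: it read 9.46 and 50.9 in the cancers, 0.694 and 0.255 in the CRC and 1.67 and 3.49 in the EpiC cultures (limma adjusted p = 0.127 and 0.379 against the cancers). Itgb3 read 34.3 and 3.99 in the cancers and at most 0.512 in any culture (limma adjusted p = 0.311 and 0.303). Lama4 read 27.8 and 7.20 in the cancers, 19.6 and 1.22 in the CRC cultures and 0.581 and 0.403 in the EpiC cultures (limma adjusted p = 0.848 and 0.47). Itgb2 and Itgb3 were lower in all 4 cultures than in both cancers. Without 1 of the cancers only the other remains on that side, so calls of such fits are not given. The macrophage markers summed to 1006 and 1462 FPKM in the cancers and to 9.07 to 36.6 in the cultures, and 6 of 8 were called lower in the CRC and 5 of 8 in the EpiC cultures. Other sums were also lower in the cultures: fibroblast (284 and 132 against 3.48 to 23.4), endothelial (56.9 and 61.1 against 1.38 to 8.77) and neutrophil (258 and 1496 against 24.4 to 254). Of these, 2 of 5 tested endothelial markers were called lower in the CRC cultures. In the EpiC cultures 1 of 5 endothelial, 1 of 8 fibroblast and 1 of 4 neutrophil markers were. Their part was not tested.

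With 2 libraries a group, the intervals in this table were wide: for Itgb1 (214 and 412 in the cancers, 373 and 60.8 in the CRC and 380 and 203 in the EpiC cultures) the difference between CRC cultures and cancers could lie between -3.17 and 1.23. Itgb1 was lowest in CRC culture 2, the library with the highest summed FPKM. Itga5, Itga6, Lama3 and Lamc1, among others, were also lowest in that library. Against EpiC culture 2 the members went both ways. Lamb3 (44.1), Itgb4 (27.2) and Itgb6 (6.23) were not lower in CRC culture 2. Lama3 (1.71 against 8.13), Itga6 (16.7 against 26.7) and Itga3 (86.0 against 122) were lower. Itga2 ranged from 0.928 to 77.3, Itga5 from 4.65 to 18.1, Itgb5 from 23.8 to 75.4 and Lamb1 from 13.8 to 64.4 over the 6 libraries. Lama5 was the main laminin α gene in all 4 cultures, at 48.7% to 86.6% of the α chains, and in neither cancer, where it held 25.8% and 27.0%. Itga7 read 0.874 to 17.4, Itga8 0.289 to 11.6, Itga2b 0.533 to 2.21, Itgb6 1.21 to 6.23, Lamb2 6.15 to 17.8 and Lamc1 5.57 to 65.1. Itga1, Itga4, Itga9, Itga10, Itga11, Itgb7, Itgb8, Lama1, Lama2 and Lamc3 were too low to test, and Lama1 was listed at 0 in 3 of the 4 cultures.

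**Figure D5:**
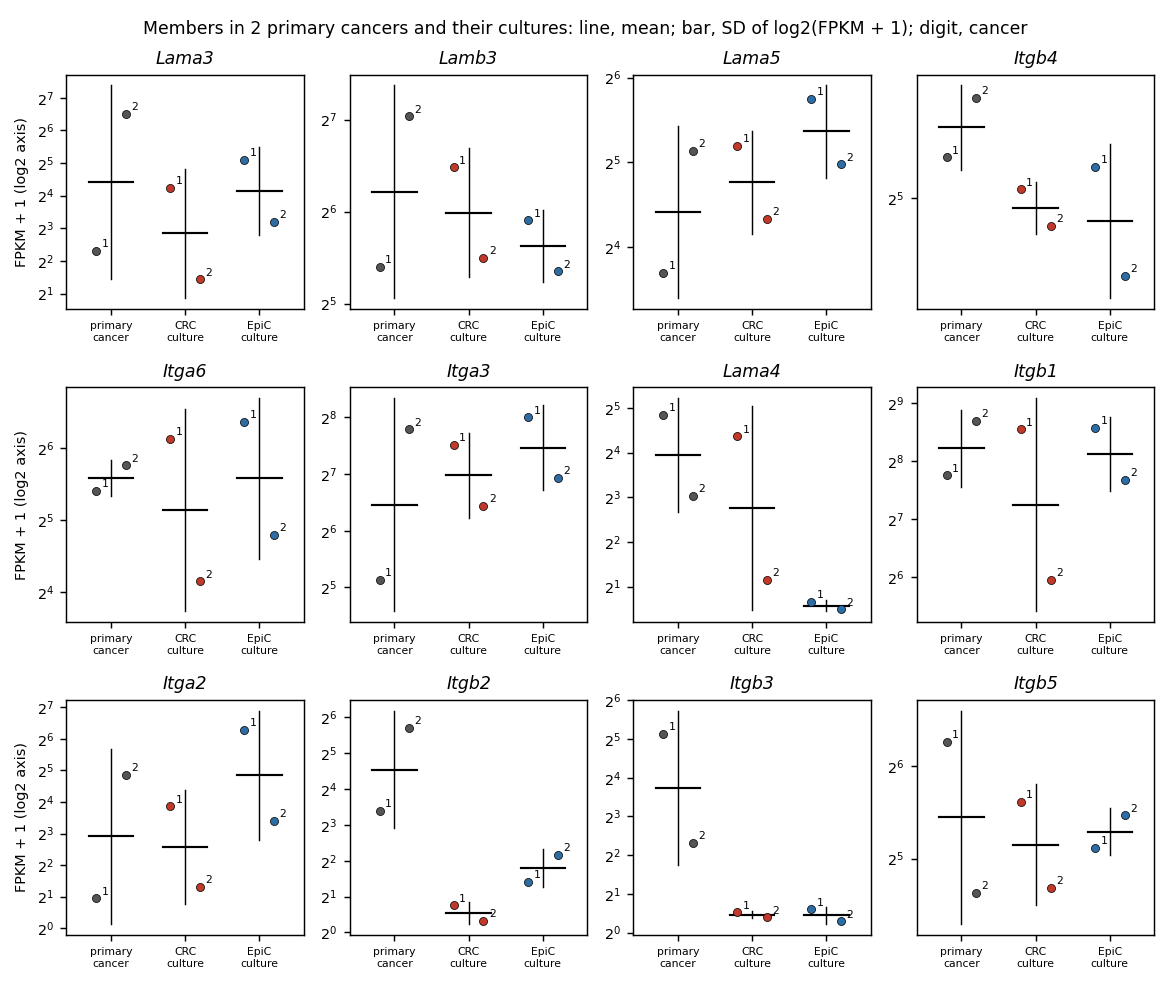
FPKM + 1 on a log2 axis for 12 members in primary cancers 1 and 2 and their CRC and EpiC cultures, with means (lines) and SDs of log2(FPKM + 1) (bars). Cancer 2 lies above cancer 1 for Lama3 and Lamb3 while culture 1 lies above culture 2, and Itgb2 and Itgb3 are lower in all 4 cultures than in both cancers.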

How the data were processed

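Poly(A) RNA was sequenced from both ends in 22 libraries. The deposited values are FPKM, which the authors computed with Cufflinks after FastQC, Trim Galore and TopHat on mm9, per the submitters' processing notes (no versions are named there). The 2 tables were normalised separately, so no test crosses them. In the second table, 407 of 23735 entries shared a symbol and were summed, and a 0 there may be a missing estimate.

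Groups came from the labels. Differences of log2(FPKM + 1) were tested with limma 3.58.1 (R 4.3.3, with an intensity trend) over all genes averaging 1 FPKM or more, with Benjamini-Hochberg adjustment over all of them. Genotype was a covariate in the first table except where it was itself compared. The culture comparison used 6 libraries, the allograft-against-culture comparisons and their difference all 16, and the second table no block. In the cultures genotype is also the replicate number, so the main fit is the blocked one. The scripts were tested on simulated data. Tables and figures used Python 3.11.15, pandas 2.3.3 and matplotlib 3.10.9.

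The naming rule matched 31 symbols, of which 1 is not reported here. The genes and lists were chosen with earlier results of these data known. Values in every library and full tests are given for members called in a comparison whose higher group averaged at least 5 FPKM. Of each list of related genes, up to 4 called genes with the largest differences are named, and further ones, named to complete a small count, were chosen after their values were seen. The alternatives changed the pseudocount (0.1), the filter (none, or 5 FPKM), the scaling (median ratios) and the model, or left out each library in turn.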

Additional observations from a re-analysis of the deposited data

Results flagged for a closer look

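Itga2b, the platelet integrin α chain, read 3.15 FPKM in CRC allograft 11C against 0.565 to 1.33 in the other 6. On the log2(FPKM + 1) scale the gap to the next library was 0.59 of the whole range of the group, above Dixon's 95% critical value for 7 libraries. This was 1 of 23 gene groups tested for such a gap, and chance alone flags about 1 in 20. Of the platelet list, Ppbp read 11.6 FPKM in the same allograft and 0.730 to 1.62 in the other CRC allografts, but also 694 to 761 in the CRC cultures, where Pf4 was at most 0.304. Pf4 read 80.6 in allograft 11C and 13.7 to 76.3 in the other CRC allografts, so it did not set that library apart.

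The change from culture to allograft differed between CRC and EpiC libraries in 9 members by the test of the difference itself (limma). It was larger or more positive in CRC libraries by 2.51 for Itga5, 3.17 for Itga11, 2.06 for Itgb5, 1.46 for Lamb1, 1.82 for Itga1 and 2.71 for Lama4 on the log2 scale. It was more negative in CRC libraries for Itgb6 (-2.57), Lama3 (-3.42) and Itga6 (-3.11). This test includes the difference between the CRC and EpiC cultures, so it is not independent of the culture comparison. All of these members but Itga1 were also called between the cultures, and no member was called between the allografts.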

How the results depend on the processing

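No called member changed direction under any alternative run. In the cultures, the members called higher were 1 with a pseudocount of 0.1 and 1 with no filter, and 0 to 5 when 1 library was left out; the 16-library model gave 5 higher, and those called lower were 8 in the 16-library model and 0 to 6 when 1 library was left out. Without the replicate block by genotype they were 4 higher and 7 lower. For CRC allografts against cultures, the filter at 5 FPKM left 6 called higher, since low members were no longer tested. For EpiC allografts, that filter left 1 higher and 1 lower, and lower calls were 1 with no filter, 1 in the 6 EpiC libraries alone and 1 to 6 with 1 library left out. For the difference between the conditions, negative calls were 1 with a pseudocount of 0.1 and 2 to 4 with 1 library left out, and positive calls 2 to 6. In the second table, leaving out 1 library leaves only 1 in its group, so calls of those fits are not given.

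The cancer number pairs the libraries of the second table by label. With it as a replicate block, 0 members were called in each comparison, as without it, while the calls over all genes between EpiC cultures and cancers went from 83 to 29. Same-numbered libraries deviated together with r = -0.0555 (cancers and CRC cultures), -0.113 (cancers and EpiC cultures) and 0.242 (CRC and EpiC cultures), and crossing the numbers for EpiC cultures, added after seeing the data, gave 69 calls and 0 members. With 2 or 3 libraries a group and no fragment totals, small differences and members under 1 FPKM were beyond what these tables can test.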
